A study of Mus musculus with 38 samples.

Results

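Elongin B and elongin C are small proteins that bind each other, and this report follows the mouse genes for elongin B (Elob), its oocyte paralog (Elobl), elongin C (Eloc) and elongin A (Eloa) through oocyte maturation and the first cell cycles of the embryo. These 4 genes were taken by their symbols from the 23125 genes of the deposited table. Elob and Elobl were chosen by their polysome changes between stages in these same libraries, and Eloc and Eloa were added as their binding partners. All values that contain the polysome libraries of Elob or Elobl are therefore given here as a description with no test. RNA was measured in 36 libraries, 3 for each of 12 groups, which are 6 stages in 2 fractions of a sucrose gradient. The polysome fraction is the heavier part, with RNA bound by several ribosomes, and the non-polysome fraction is the lighter part.

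The GV, MII and interphase embryo samples are labelled WT, no sample carries a named genetic change, and the study's methods name the outbred ICR strain with hormone-primed adult females. GV oocytes (prophase arrest, germinal vesicle intact) were isolated in the presence of IBMX, which holds them in arrest, and MII eggs were obtained from them by culture without it. Zygotes in interphase were recovered after mating and two-cell embryos were obtained from zygotes by culture. Embryos in M-phase, of 1 cell (zygote M) or at the next division (two-cell M), were collected after nocodazole, a drug that depolymerises microtubules, so M-phase and drug cannot be told apart in the embryos. MII eggs received no such drug. The label of the embryo M-phase samples reads meiosis although their titles name zygotes and two-cell embryos, and the titles were used. Lysates were made after cycloheximide, which stalls ribosomes on mRNA, and the lighter and heavier parts of the gradient were each pooled. The study calls its libraries biological replicates, but the labels do not say which animals or cultures each came from, so p-values measure the spread between these libraries.

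The elongin B-C pair has roles in separate machines. With elongin A it forms the transcription factor elongin, which stimulates elongation by RNA polymerase II. It also docks substrate receptors that carry a BC box, such as the von Hippel-Lindau protein, onto the cullins Cul2 and Cul5, whose RING partners Rbx1 and Rnf7 recruit the ubiquitin-conjugating enzyme. Elobl is annotated as a gene like elongin B, and fully grown oocytes are known to store mRNA that is later translated or degraded, as transcription is silent until the embryonic genome is activated around the two-cell stage.

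The genes lie apart in the genome (GRCm38, GENCODE M21), all on the minus strand. Elob spans chr17:23824738-23829136, Elobl chr11:88964658-88966931, Eloc chr1:16641725-16657042 and Eloa chr4:136003368-136021763. Their longest annotated coding sequences have 357 bases in Elob, 486 in Elobl, 405 in Eloc and 2322 in Eloa. In a global alignment 277 of the 357 ungapped positions were identical between the coding sequences of Elob and Elobl, or 77.6%, and the Elobl sequence was 129 bases longer. The longest identical stretch had 21 bases, and none of the 507 windows of 31 bases in the Elob transcript occurred in a transcript of Elobl. The first 120 coding bases of both genes, with the 22 positions that differ in capitals, are shown because they let a reader see how far reads of these paralogs can be told apart.
Elob: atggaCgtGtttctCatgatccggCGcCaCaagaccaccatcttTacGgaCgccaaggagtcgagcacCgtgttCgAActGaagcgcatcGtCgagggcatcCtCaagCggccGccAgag
Elobl: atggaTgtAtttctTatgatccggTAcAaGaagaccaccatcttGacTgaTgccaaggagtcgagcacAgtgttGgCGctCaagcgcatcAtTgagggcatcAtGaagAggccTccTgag

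RefSeq promoter windows (GRCm38.p6, 250 bases before to 50 after the start) matched 3 of the 4 members, Elob, Elobl and Eloa. The windows of the paralogs, on the minus strand at chr17:23829060-23829359 for Elob and chr11:88966882-88967181 for Elobl, are shown with each CG dinucleotide in capitals. Whether these windows bear on the levels of the genes was not tested.
Elob: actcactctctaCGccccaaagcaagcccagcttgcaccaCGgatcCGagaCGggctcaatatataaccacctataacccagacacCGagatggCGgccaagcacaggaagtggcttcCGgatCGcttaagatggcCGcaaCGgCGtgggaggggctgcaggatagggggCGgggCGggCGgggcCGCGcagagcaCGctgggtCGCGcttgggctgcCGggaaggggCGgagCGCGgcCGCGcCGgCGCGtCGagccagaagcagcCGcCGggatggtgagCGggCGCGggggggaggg
Elobl: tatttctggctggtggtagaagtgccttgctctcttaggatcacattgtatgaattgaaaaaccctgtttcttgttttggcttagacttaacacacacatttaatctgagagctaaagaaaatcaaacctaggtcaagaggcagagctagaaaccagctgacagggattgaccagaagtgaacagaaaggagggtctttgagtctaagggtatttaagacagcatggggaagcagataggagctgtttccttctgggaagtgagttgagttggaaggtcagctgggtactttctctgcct
The Elob window held 34 CG dinucleotides and was 69.7% G and C. The Elobl window held 0 and was 43.7% G and C. Among 32851 promoter windows of 300 bases the median was 7 CG dinucleotides, 92.3% of windows had fewer than Elob and 5.43% had 0. Eloa, whose window is not printed, held 36. The letters GGGCGG, searched on both strands and overlapping the CG count by their own CG, occurred 4 times in the Elob window, 2 times in that of Eloa and 0 times in that of Elobl, and 35.7% of all windows held them.

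Values are FPKM, fragments scaled by exon length and by the mapped fragments of the library, so each is a share of its library per length of gene. The number of reads per library is unknown from the table and no counting error can be given. Because FPKM is a share, fewer cells of a type and less RNA per cell cannot be told apart from a change of 1 transcript. The labelled stages were checked against marker genes. The summed level of 11 oocyte markers was highest in the GV non-polysome libraries (10161 to 10791 FPKM) and lowest in the two-cell M libraries of both fractions (16.6 to 236 FPKM). A sum over 10 genes of the two-cell burst was highest in the two-cell non-polysome libraries, at 425 to 721 FPKM. In polysomes the sum of this list did not mark the stage, at 176 to 323 FPKM in GV, 126 to 193 FPKM in two-cell and 10.3 to 146 FPKM in two-cell M. Tcstv1 made up the largest part of the GV sum, with means of 203 FPKM there and 81.0 FPKM in two-cell polysomes. Zscan4a, Zscan4b, Zscan4c, Zscan4d, Zscan4f, Zfp352 and Tcstv3 had their highest polysome mean in two-cell embryos. Duxf3 and Usp17lc had theirs in two-cell M. Of 4 globin genes in the blood list, Hba-a1 averaged 129 FPKM in two-cell non-polysome and 53.4 FPKM in two-cell polysome libraries, while Hbb-bs and Hbb-bt were at the smallest value of the table, 0.01 FPKM, or near it, with group means of up to 0.149 FPKM. The summed list lay between 0.04 and 1.33 FPKM in every GV, MII, zygote and zygote M library and between 0.04 and 52.6 FPKM in two-cell M. Among cumulus and granulosa markers 1 two-cell non-polysome library reached a sum of 55.3 FPKM and 1 MII non-polysome library 23.6 FPKM, with the other groups at most 4.78 FPKM. In two-cell non-polysome libraries Hsd3b1 averaged 11.6 FPKM and Inha 6.70 FPKM, with the other genes of that list at most 0.406 FPKM. The sum over 4 oviduct markers was highest in two-cell polysomes (9.29 to 31.2 FPKM). There Krt18 averaged 19.4 FPKM, Krt8 2.23 FPKM and Epcam 0.286 FPKM, while Ovgp1 was at 0.01 FPKM. Whether cells of these other types were present, and any part of them in the two-cell results, was not tested.

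Elobl was among the most abundant transcripts of the oocyte and zygote in both fractions. In polysomes it was listed at 2443, 1775 and 1573 FPKM in GV oocytes, at 903, 830 and 957 FPKM in MII eggs and at 1634, 1952 and 2192 FPKM in zygotes. It ranked 4 of all genes by mean in GV polysomes and 3 in zygote polysomes. From the first mitosis on its levels were lower. They were 473, 460 and 530 FPKM in zygote M and 330, 374 and 443 FPKM in two-cell embryos. Two-cell M polysomes held 59.2, 21.6 and 52.6 FPKM, below all other stages. In order of their means the polysome groups ran from GV through zygote, MII and zygote M to two-cell, with two-cell M last, and only GV and zygote overlapped among neighbours in it. At each transition from interphase to M-phase the M-phase libraries lay below the interphase ones without overlap, by 1.08 on the log2 scale in the oocyte, 1.97 in the zygote and 3.22 in the two-cell embryo. Of all genes tested, 47.5%, 56.5% and 43.4% likewise did not overlap in these comparisons.

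In the non-polysome fraction the Elobl level was 1526, 724 and 1674 FPKM in GV oocytes and 1763, 1474 and 1705 FPKM in MII eggs. Zygotes held 2472, 2677 and 3362 FPKM, the highest values of the gene. Zygote M held 250, 249 and 268 FPKM, two-cell 219, 228 and 298 FPKM, and two-cell M 40.4, 25.9 and 61.9 FPKM. The zygote libraries stood above all others, GV overlapped MII, and zygote M overlapped two-cell. The two-cell M libraries were thus the lowest in this fraction as well. Of all genes tested, 49.4% likewise did not overlap between GV and zygotes outside polysomes.

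**Figure D1:**
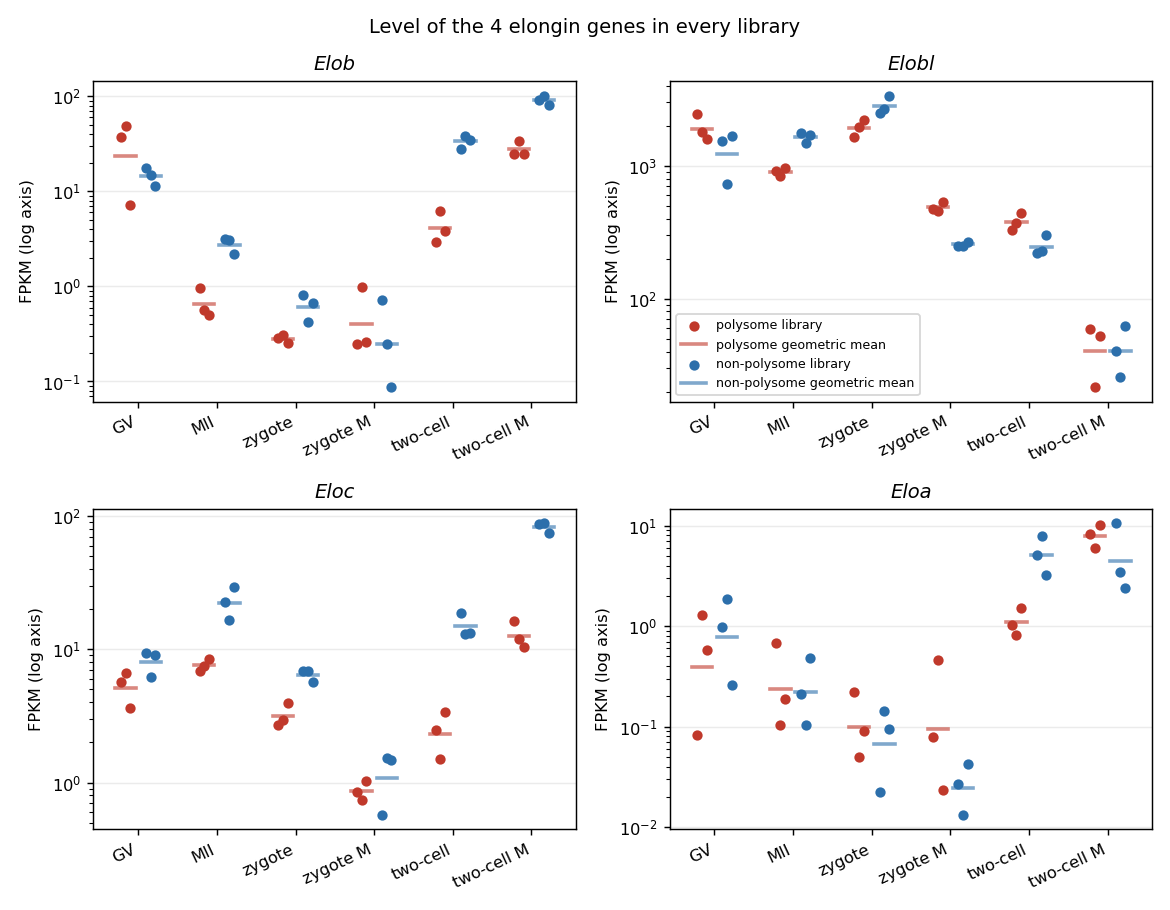
FPKM (log axis) of Elob, Elobl, Eloc and Eloa in every library by stage; red points are polysome and blue points non-polysome libraries, and bars are geometric means of 3. Elobl is at 1634 FPKM or more in every zygote library and below 62 FPKM in two-cell M, while Elob, Eloc and Eloa have their lowest means in zygotes or zygote M.

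Elob, the ubiquitous elongin B gene, ran through a deep trough in the same libraries. GV polysomes held 37.7, 48.3 and 7.23 FPKM, the last of these well below the others. MII polysomes held 0.958, 0.562 and 0.507 FPKM, zygote polysomes 0.285, 0.312 and 0.256 FPKM, and zygote M polysomes 0.248, 0.987 and 0.26 FPKM. Elob was listed again at 2.91, 6.15 and 3.87 FPKM in two-cell and at 25.05, 34.3 and 24.6 FPKM in two-cell M polysomes. GV and two-cell M overlapped at the top of this order, and MII, zygote M and zygote overlapped in turn at its foot. The two-cell M polysome level was thus higher than the two-cell level without overlap, by 2.75 on the log2 scale, whereas Elobl was lower in the same libraries. Between these groups 43.4% of all genes tested likewise did not overlap, and the median change was -1.17.

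Outside polysomes Elob was also lowest in zygotes and zygote M, but there two-cell and two-cell M stood above GV. It was listed at 17.5, 14.9 and 11.5 FPKM in GV, 3.16, 3.05 and 2.18 FPKM in MII, 0.823, 0.422 and 0.665 FPKM in zygotes and 0.717, 0.248 and 0.0874 FPKM in zygote M. Two-cell embryos held 27.9, 38.6 and 35.1 FPKM and two-cell M embryos 92.6, 101.9 and 81.8 FPKM. Zygote and zygote M overlapped, and no other neighbours in the order did. Between GV and zygote, which did not overlap for Elob, 49.4% of all genes tested likewise did not overlap. In rank, Elob stood at 6805 among the genes of the table in zygote M non-polysome RNA and at 307 in two-cell M.

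The share of the paralog in the summed FPKM of both elongin B genes was lower in two-cell M than at any other stage. Elobl made up 98.5% ± 1.10 (SD, n = 3) in GV polysomes and 99.985% ± 0.003 in zygote polysomes, and still 98.9% ± 0.433 in two-cell polysomes. In two-cell M polysomes it was 59.0% ± 17.7, with libraries from 38.7% to 70.3%. Outside polysomes the share was 99.98% ± 0.00917 in zygotes, 87.9% ± 2.11 in two-cell embryos and 31.2% ± 11.4 in two-cell M, with libraries from 20.3% to 43.1%, so that Elobl was the minor transcript in all 3. With 4 pseudogenes that share sequence with Elob, described below, counted as Elob, an alternative chosen after seeing the data, the two-cell M share was 46.5% ± 17.8 in polysomes and 20.9% ± 8.49 outside. The summed FPKM of both genes was 2473 to 3362 in zygotes and 128 to 144 in two-cell M outside polysomes.

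**Figure D2:**
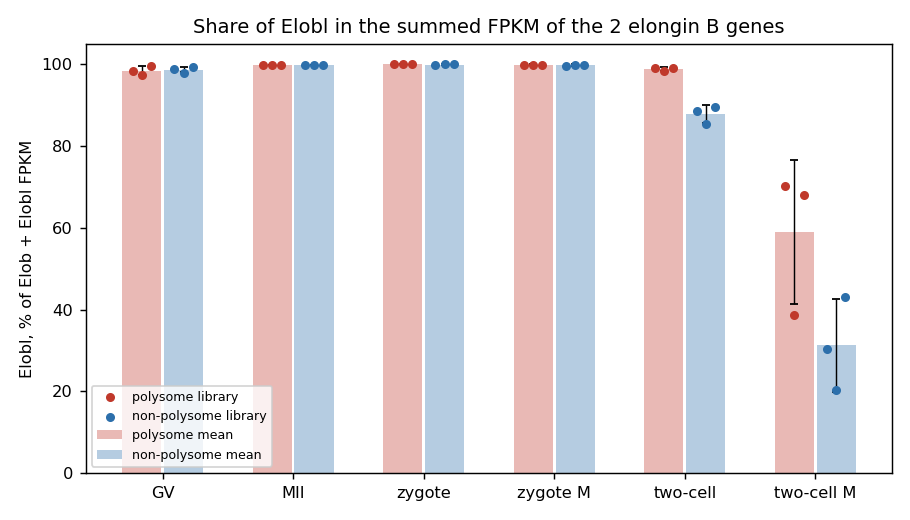
Elobl as a percent of the summed FPKM of Elob and Elobl, by stage; bars are means, error bars SD, points the 3 libraries of each group. The share is 98.5% or more in every polysome group before two-cell M, 59.0% there, and 31.2% in two-cell M outside polysomes.

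Eloc, the partner of elongin B, was at 8.46 FPKM or less in every polysome library before two-cell M, and its MII mean ranked 1813 of all genes. Its polysome level was 5.64, 6.66 and 3.65 FPKM in GV, 6.83, 7.56 and 8.46 FPKM in MII, 2.72, 2.92 and 3.93 FPKM in zygotes, 0.852, 0.738 and 1.03 FPKM in zygote M, 2.46, 1.504 and 3.38 FPKM in two-cell and 16.4, 11.9 and 10.4 FPKM in two-cell M. The two-cell M libraries were the highest and the zygote M libraries the lowest, both without overlap, whereas GV overlapped zygote and zygote overlapped two-cell. Its non-polysome level was 9.47, 6.19 and 9.07 FPKM in GV, 22.7, 16.6 and 29.3 FPKM in MII, 6.92, 6.82 and 5.71 FPKM in zygotes, 0.573, 1.52 and 1.47 FPKM in zygote M, 18.9, 13.04 and 13.4 FPKM in two-cell and 87.7, 88.4 and 75.2 FPKM in two-cell M. Here too two-cell M was the highest and zygote M the lowest group without overlap, whereas MII overlapped two-cell and GV overlapped zygote. Of all genes tested, between 28.9% and 58.4% had non-polysome groups that did not overlap in the 7 stage comparisons of the study. For polysome groups the shares ran from 43.4% to 64.3%.

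Per length of gene, the summed elongin B transcripts far exceeded Eloc in polysomes at every stage before two-cell M. Their FPKM was 274 to 440 times that of Eloc in GV, 110 to 132 times in MII, 557 to 668 times in zygote, 515 to 624 times in zygote M and 132 to 252 times in two-cell polysomes, but 4.70 to 7.45 times in two-cell M. Outside polysomes the ratio was 58.2 or more from GV to zygote M, 13.1 to 24.97 in two-cell and 1.44 to 1.91 in two-cell M. For Elob alone the ratio to Eloc was above 1 in every GV, two-cell and two-cell M library, at 1.98 to 7.25 in GV, 1.14 to 4.09 in two-cell and 1.52 to 2.88 in two-cell M polysomes. Outside polysomes it was 1.27 to 2.40, 1.48 to 2.96 and 1.06 to 1.15 in these stages. In MII and zygotes it was 0.184 or less in both fractions, and in zygote M it ran from 0.0595 to 1.34.

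Eloa, the subunit that makes the complex a transcription elongation factor, was listed below 2 FPKM in every library before the two-cell stage. Its polysome values spread from 0.0816 to 1.29 FPKM in GV, 0.104 to 0.68 in MII, 0.0498 to 0.221 in zygotes and 0.0232 to 0.464 in zygote M, so that these stages overlapped one another. Two-cell polysomes held 1.03, 0.814 and 1.53 FPKM and two-cell M polysomes 8.30, 5.95 and 10.2 FPKM, the latter above every other polysome library. Between these 2 groups 43.4% of all genes tested likewise did not overlap. The non-polysome values were at most 1.87 FPKM in GV, 0.481 in MII, 0.142 in zygotes and 0.0422 in zygote M. They were 5.11, 7.89 and 3.20 FPKM in two-cell and 10.6, 3.42 and 2.37 FPKM in two-cell M, 2 groups that overlapped.

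The stage comparisons of the study were tested in the non-polysome fraction for all 4 members, with limma on log2 FPKM over 7967 genes that reached a geometric mean of 0.1 FPKM, as all members did. A gene was called at an adjusted p below 0.05 and a change beyond 2-fold. The members gave 18 calls in 28 such tests. Elob and Elobl were chosen on the polysome values, but with results of this fraction known and from the same stages, so these tests are not fully independent of that choice. The median change of all genes tested is given beside each comparison, so that the members can be read against it.

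Between prophase oocytes and zygotes in interphase, Elob and Eloa were higher and Elobl lower in the oocyte, where 13.9% of all genes were called and the median change was -0.65 on the log2 scale. The difference of GV from zygote was 4.55 ± 0.69 (SE) for Elob (adjusted p = 5.83e-05), 3.54 ± 1.08 for Eloa (adjusted p = 0.0276) and -1.20 ± 0.32 for Elobl (adjusted p = 0.0113). Eloc did not pass, at 0.33 with a 95% interval of -0.61 to 1.26. Against two-cell embryos 29.7% of genes were called with a median of 0.78, and of the members Elobl alone was called, being higher in GV by 2.32 ± 0.32 (adjusted p = 2.75e-06). Elob differed by -1.22 (adjusted p = 0.19), Eloc by -0.88 (adjusted p = 0.153) and Eloa by -2.70 (adjusted p = 0.0597). The Elobl call against zygotes was lost without GV replicate B (adjusted p = 0.139) or zygote replicate D (adjusted p = 0.063), in a fit to only the groups compared (adjusted p = 0.0529), and with sample weights, where the difference of -0.97 was within 2-fold. That of Eloa against zygotes was lost without GV replicate A (adjusted p = 0.077), GV replicate B (adjusted p = 0.161), zygote replicate B (adjusted p = 0.152) or zygote replicate D (adjusted p = 0.0554), with 1 FPKM added, where the difference was 0.83 (adjusted p = 0.0879), with only the groups compared (adjusted p = 0.0696), and with the replicate letter as a block (adjusted p = 0.0608). Eloa against two-cell embryos was called without GV replicate B (adjusted p = 0.0407), with 0.1 FPKM added (adjusted p = 0.00945), with 1 FPKM added (adjusted p = 0.000599) and with quantile normalization (adjusted p = 0.0319). Elob against two-cell embryos was called with 1 FPKM added (adjusted p = 0.0295).

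Among the M-phases, MII eggs held more non-polysome RNA of all 4 members than zygotes in M-phase, with 19.8% of genes called and a median of 0.63. The difference was 4.36 ± 0.46 for Eloc (adjusted p = 4.38e-08), 3.47 ± 0.69 for Elob (adjusted p = 0.000492), 2.68 ± 0.32 for Elobl (adjusted p = 3.32e-07) and 3.15 ± 1.08 for Eloa (adjusted p = 0.0397). The Eloa values here are below 0.5 FPKM in both groups, and its call was lost without MII replicate A (adjusted p = 0.0873), MII replicate C (adjusted p = 0.166), zygote M replicate A (adjusted p = 0.0779) or zygote M replicate B (adjusted p = 0.14), and in most other settings (adjusted p = 0.0397 to 0.868). The difference itself was 1.39 with 0.1 FPKM added and 0.29 both with 1 FPKM added and with quantile normalization. Against two-cell M embryos 61.3% of genes were called and the median gene was higher in MII by 3.39. Elobl was higher in MII by 5.35 ± 0.32 (adjusted p = 1.10e-13), while the others were lower there, with differences of -5.05 ± 0.69 for Elob (adjusted p = 6.42e-07), -4.33 ± 1.08 for Eloa (adjusted p = 0.00117) and -1.91 ± 0.46 for Eloc (adjusted p = 0.000792). The Eloa call was lost with sample weights (adjusted p = 0.126, with 1.08e-05 to 0.126 over all settings).

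From GV to MII Elob fell and Eloc rose outside polysomes. In this comparison 16.6% of genes were called and the median was 0.44. Elob fell by 2.39 ± 0.69 on the log2 scale (adjusted p = 0.0168), Eloc rose by 1.46 ± 0.46 (adjusted p = 0.0276), Elobl differed by 0.42 with an interval of -0.23 to 1.07, and Eloa by -1.83 with an interval of -4.05 to 0.39. The Elob call was lost without MII replicate C, GV replicate A or GV replicate B (adjusted p = 0.0537 to 0.068). The Eloc call was lost without MII replicate A, MII replicate C or GV replicate B (adjusted p = 0.0743 to 0.128), and with quantile normalization, where the change was 0.94 (adjusted p = 0.135, with 0.000699 to 0.135 over all settings).

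In the first mitosis Elobl and Eloc fell together. From zygote to zygote M, with 10.4% of genes called and a median of -0.87, Elobl fell by 3.46 ± 0.32 (adjusted p = 2.21e-08) and Eloc fell by 2.57 ± 0.46 (adjusted p = 0.000385). Elob, already low, differed by -1.30 (adjusted p = 0.27) and Eloa by -1.43 (adjusted p = 0.497). The second mitosis set them against each other. From two-cell to two-cell M, with 36.1% of genes called and a median of -1.14, Elobl fell by 2.61 ± 0.32 (adjusted p = 1.83e-07) and Eloc rose by 2.49 ± 0.46 (adjusted p = 8.88e-05). Elob differed by 1.45 with an interval of 0.04 to 2.87 (adjusted p = 0.105), and was called with 1 FPKM added (1.42, adjusted p = 0.00763) and with only the groups compared (adjusted p = 0.0309). Eloa differed by -0.20 with an interval of -2.42 to 2.02. The Eloc call narrowly missed the threshold with sample weights (adjusted p = 0.0529, with 1.84e-07 to 0.0529 over all settings).

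**Figure D3:**
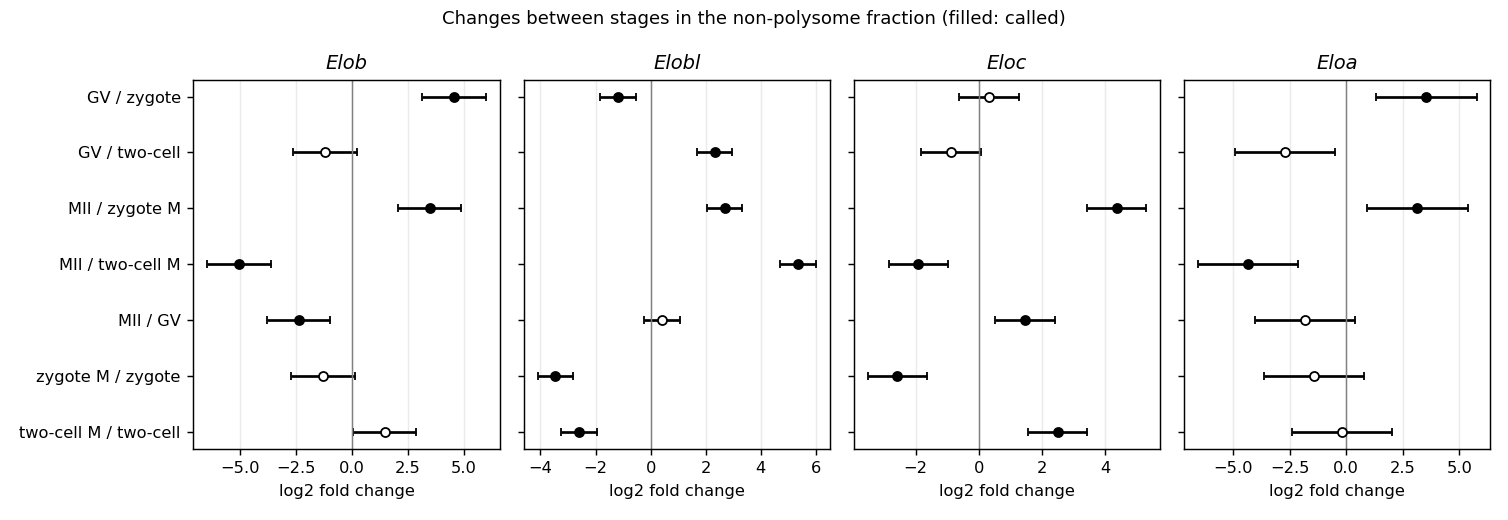
Log2 fold change of each gene between stages in the non-polysome fraction, first stage over second, with 95% intervals from limma; filled points were called and open points were not. Elobl and Elob lie on opposite sides of zero for MII against two-cell M, at 5.35 and -5.05, and each panel has its own horizontal scale.

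Whether the M-phase changes differed between the 3 transitions was tested as an interaction in the same fraction. Shares of 24.3%, 30.2% and 27.6% of all genes were called for meiosis against the first mitosis, meiosis against the second mitosis and the first against the second mitosis, and the members gave 6 calls in 12 tests. The medians over all genes were 1.60, 2.00 and 0.16, so that the members' values below are to be read against these. The change of Elobl in meiosis exceeded that in the first mitosis by 3.88 ± 0.45 (adjusted p = 4.79e-07) and that in the second by 3.03 ± 0.45 (adjusted p = 7.74e-06). The change of Eloc exceeded that of the first mitosis by 4.03 ± 0.65 in meiosis (adjusted p = 4.22e-05), and the first mitosis differed from the second by -5.06 ± 0.65 (adjusted p = 9.66e-07). For Elob, meiosis differed from the second mitosis by -3.84 ± 0.98 (adjusted p = 0.00359, lost with sample weights at adjusted p = 0.0803, with 3.59e-05 to 0.0803 over all settings) and the first mitosis from the second by -2.75 ± 0.98 (adjusted p = 0.0358). The last of these calls was lost on leaving out any of 7 of the 12 libraries (adjusted p = 0.0505 to 0.128), namely two-cell replicate A, two-cell M replicates A and B, zygote replicates B and D and zygote M replicates B and C, and in several other settings, among them quantile normalization, where the difference was -0.73 (adjusted p = 0.657, with 0.021 to 0.657 over all settings). The Elob change in meiosis minus that in the first mitosis was -1.09 (adjusted p = 0.457), and was called with quantile normalization (-3.57, adjusted p = 0.00803) and with 1 FPKM added (-1.74, adjusted p = 0.0208). For Elobl the first minus the second mitosis was -0.84 with an interval of -1.76 to 0.07 (adjusted p = 0.167). No interaction of Eloa was called, although with quantile normalization its meiosis minus first mitosis was -4.36 (adjusted p = 0.0339), against -0.39. Eloc in meiosis minus the second mitosis was -1.03 (adjusted p = 0.238), and was called with 1 FPKM added (-1.06, adjusted p = 0.0492).

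In polysomes only Eloc and Eloa were tested, with 5 calls in 14 stage comparisons. MII eggs held more Eloc in polysomes than zygote M by 3.13 ± 0.46 (adjusted p = 1.90e-05), where 12.4% of genes were called with a median of 0.46. Eloc fell by 1.87 ± 0.46 from zygote to zygote M (adjusted p = 0.0103, 5.75% of genes called, median -0.43) and rose by 2.45 ± 0.46 from two-cell to two-cell M (adjusted p = 0.000148, 36.3% of genes called, median -1.17). The first of these was lost without zygote replicate D (adjusted p = 0.0671) or zygote M replicate B (adjusted p = 0.0562). Eloa was higher in two-cell M than in MII polysomes, with a difference of MII from two-cell M of -5.07 ± 1.08 (adjusted p = 0.000335, 53.0% of genes called, median 2.64). It rose by 2.87 ± 1.08 from two-cell to two-cell M (adjusted p = 0.0389), a call that leaving out any one of the 6 libraries ended (adjusted p = 0.0548 to 0.102), as did no filter on low values (adjusted p = 0.0665), the replicate letter as a block (adjusted p = 0.0521) and sample weights (adjusted p = 0.392, with 4.16e-05 to 0.392 over all settings). From GV to MII 6.11% of genes were called, and neither Eloc, at 0.56 (interval -0.38 to 1.49), nor Eloa, at -0.74 (interval -2.96 to 1.48), was among them. Between GV and zygote (5.61% called) and between GV and two-cell (16.7% called) neither gene was called, but Eloc between GV and two-cell, at 1.15 (adjusted p = 0.0828), was called with 0.1 FPKM added (1.12, adjusted p = 0.0466). Eloc in MII differed from two-cell M by -0.74 (adjusted p = 0.176), and was called with quantile normalization (-1.71, adjusted p = 0.00375).

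Polysome and non-polysome levels were then set beside each other at each stage. For Elobl, a description only, the polysome level was below the non-polysome level in MII by 0.88 and in zygotes by 0.56 on the log2 scale, and above it in zygote M by 0.93 and in two-cell by 0.63, in each case without overlap of the libraries. The median gene differed between fractions by 0.56 in GV, -0.04 in MII, -0.24 in zygotes, 0.31 in zygote M, 0.28 at the two-cell stage and 0.37 in its M-phase, with the same signs as Elobl. Of all genes tested, 31.7% in MII, 47.1% in zygotes, 23.9% in zygote M, 29.7% in two-cell embryos and 19.8% in two-cell M also had fractions that did not overlap. GV and two-cell M libraries overlapped between fractions, at 0.63 and 0.02. Elob was lower in polysomes without overlap in MII (-2.09), zygote (-1.12), two-cell (-3.03) and two-cell M (-1.73), and its fractions overlapped in GV and zygote M.

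Eloc was called lower in polysomes at the two-cell stage, with a difference of -2.68 ± 0.46 (adjusted p = 0.000219, 16.1% of genes called), and in two-cell M, with -2.72 ± 0.46 (adjusted p = 0.000107, 14.8% of genes called). The latter call was lost in a fit to only the groups compared (adjusted p = 0.0568) and with sample weights (adjusted p = 0.0832), with adjusted p = 4.23e-07 to 0.0832 over all settings. Its differences in GV (-0.65), MII (-1.55), zygote (-1.04) and zygote M (-0.33) were also negative and were not called, at stages where 4.96%, 0.753%, 1.38% and 1.92% of all genes were. The MII difference was called with 1 FPKM added (adjusted p = 0.0059), a minimum of 1 FPKM (adjusted p = 0.0444), only the groups compared (adjusted p = 0.0196) and sample weights (adjusted p = 0.000285), and the zygote difference in the last of these settings (adjusted p = 0.000138) and with only the groups compared (adjusted p = 0.0135). Eloa was called at none of the 6 stages, and its fractions were apart without overlap in two-cell embryos alone (-2.22, adjusted p = 0.165), a difference that was called with 0.1 FPKM added (-2.12, adjusted p = 0.0423) and with 1 FPKM added (-1.54, adjusted p = 0.00305). These were 2 calls in 12 tests. Whether an M-phase change differed between polysome and non-polysome RNA was tested for Eloc and Eloa in the 3 transitions. None of these 6 interactions was called by limma, and 0 of 6 had an unadjusted p below 0.05. Shares of 0.163%, 0.289% and 5.75% of all genes were called in meiosis, the first and the second mitosis. With 1 FPKM added to each value, 1 of the 6 was called, that of Eloa in the second mitosis (2.23, adjusted p = 0.00777). In the second mitosis the Eloc changes in the fractions differed by -0.04 with an interval of -1.37 to 1.28.

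**Figure D4:**
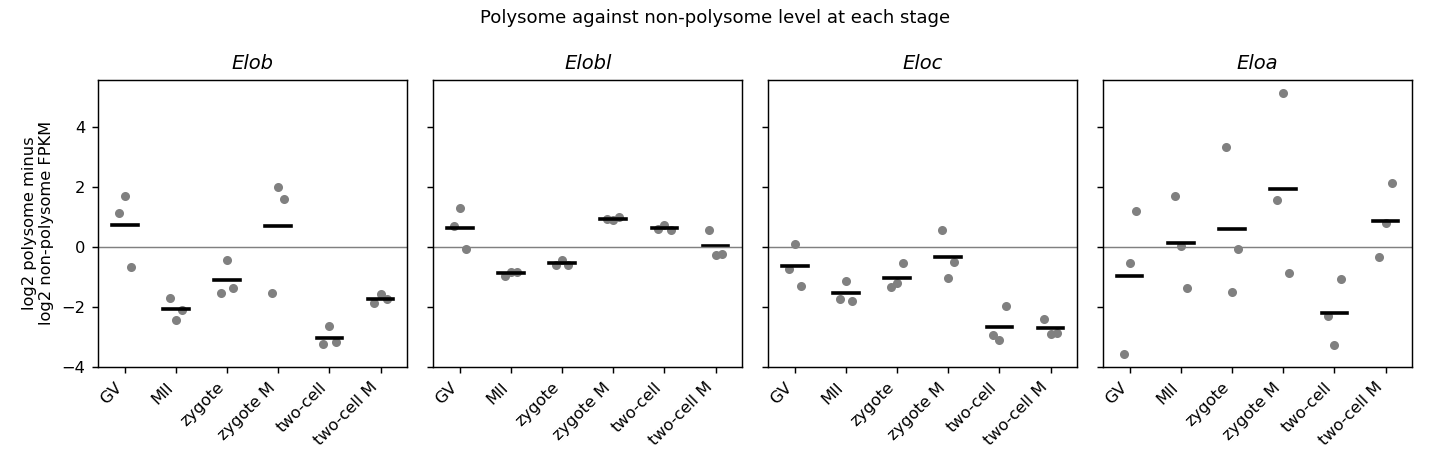
Log2 polysome minus log2 non-polysome FPKM at each stage; grey points join libraries of the same stage and letter, black bars are differences of the group means. Elobl lies below zero in MII and zygote and above it in zygote M and two-cell, and Eloc is lowest at -2.68 and -2.72 in two-cell and two-cell M.

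Reads of Elob may be split with copies of it elsewhere in the genome. Of its 507 windows of 31 bases, 138 occurred in the processed pseudogene Gm11598, 80 in Gm11401 and 74 in Gm9238, all in the table, and 125 in Gm8971, which lies where the table lists CT010506.1. The summed FPKM of these 4 followed Elob across the 36 libraries, with r = 0.95 on log2 values, a description over libraries that share a stage, and averaged 28.2 against 31.1 FPKM in GV polysomes and 68.3 against 92.1 FPKM in two-cell M non-polysome RNA. How fragments with several matches were counted is not given in the sources used here, so the level of Elob is uncertain. The sum of these 4 is no bound on that, since CT033749.1, which holds 171 of the windows, the most of any gene, and Gm7626 (29) and Gm8061 (24) are not among the genes analysed here. With the 4 pseudogenes added to Elob, an alternative chosen after seeing the data, its calls between stages in non-polysome RNA remained and the interaction between the mitoses was lost (-2.13, adjusted p = 0.171). Elobl shared 121 of its 789 windows with Coil and 114 with 2210409E12Rik, whose highest group means were 0.933 and 40.6 FPKM. The exons of Elob share 4 bases with those of Srrm2 on the other strand, and those of Eloa share 507 of 4708 bases with Gm13008, which averaged at most 0.198 FPKM. The library kit does not mark strand.

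**Figure D5:**
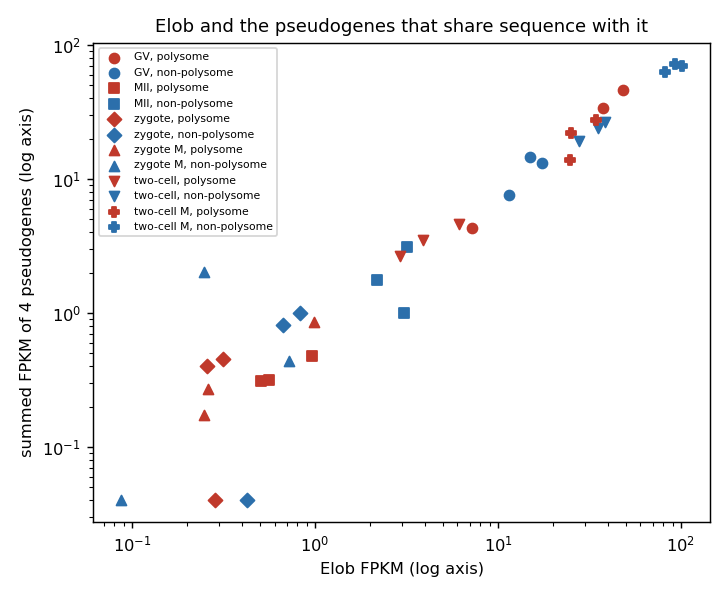
FPKM of Elob against the summed FPKM of Gm11598, CT010506.1, Gm11401 and Gm9238 in 36 libraries (log axes), with a symbol for each stage, red for polysome and blue for non-polysome. The sum and Elob are both highest in two-cell M non-polysome libraries, and the lowest sums are 0.04 FPKM, the smallest value of the table in all 4.

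The genes most like each member over the 36 libraries were named by Pearson's r on log2 FPKM, a description over libraries that share stages. Elob was most like its pseudogenes Gm11598 (r = 0.93) and CT010506.1 (r = 0.91), then Rpl41 (r = 0.89), a ribosomal protein gene. Elobl was most like Zar1 (r = 0.93), a maternal factor that binds stored mRNA, Ooep (r = 0.92), a member of the subcortical maternal complex, and Pcgf1 (r = 0.91), a Polycomb gene. For Eloc they were Dppa5a (r = 0.94), Gm9843 (r = 0.92) and the ribosomal protein gene Rps29 (r = 0.91), and for Eloa Gon7 (r = 0.86), Aprt (r = 0.85) and Gm21955 (r = 0.84). Among the members Elob and Eloa had r = 0.82, Elob and Eloc r = 0.68, and Elob and Elobl r = -0.49. Zar1 averaged 1321 FPKM in GV polysomes and 2.58 FPKM in two-cell M polysomes, and Dppa5a had 27.1 FPKM in zygote M and 845 FPKM in two-cell M polysomes.

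The rest of the elongin machinery was described from 3 lists. Of 31 genes for the cullin-RING ligase and its activation by Nedd8, a list that also held Hif1a and Egln1, 23 were tested in polysomes. In meiosis 0 were called higher and 1 lower (all genes 3.36% and 2.75%), in the first mitosis 1 and 0 (3.24% and 2.51%) and in the second 2 and 2 (8.13% and 28.1%), and the median changes were 0.12, -0.54 and 0.21 against 0.18, -0.43 and -1.17 over all genes. Rbx1, the RING subunit, fell by 1.61 in meiosis (14.3 ± 2.18 FPKM in MII against 47.9 ± 26.4 in GV, adjusted p = 0.00856). It rose by 2.13 in the first mitosis (42.9 ± 6.37 FPKM in zygote M against 9.83 ± 1.52 in zygotes, adjusted p = 0.000457), where Elobl was lower. Vhl, the von Hippel-Lindau substrate receptor, rose by 5.41 in the second mitosis (8.67 ± 3.15 FPKM against 0.578 ± 0.517, adjusted p = 0.00565). With 1 of its 3 two-cell libraries at 0.01 FPKM, this mean of log2 values exceeded the log2 ratio of the means, 3.91. Uba3, a subunit of the Nedd8-activating enzyme, was called lower there (adjusted p = 0.0411), listed at 0.01 FPKM in all 3 two-cell M libraries against a mean of 0.21 FPKM in two-cell. The list's highest polysome means were those of the COP9 signalosome genes Cops7a (44.4 FPKM) and Cops8 (39.9 FPKM) and of the ubiquitin-conjugating enzyme gene Cdc34 (36.5 FPKM). The scaffold genes Cul2 and Cul5, named for their role and outside the naming rule, did not reach the minimum for testing, with group means of at most 0.447 and 0.347 FPKM.

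Of 51 genes listed as receptors with a BC or related box, a list that also held Kctd5, 45 were in the table and 18 were tested. In polysomes 0 were called higher and 1 lower in meiosis, 1 and 0 in the first mitosis and 2 and 3 in the second, with medians of 0.58, 0.07 and 0.18. Over all genes the shares called higher and lower were 3.36% and 2.75%, 3.24% and 2.51%, and 8.13% and 28.1%, and the medians 0.18, -0.43 and -1.17. Klhdc2, a receptor for C-terminal degrons, fell by 1.67 in meiosis (adjusted p = 0.0258) and rose by 1.72 in the first mitosis (adjusted p = 0.0217), the same directions as Rbx1. In the second mitosis Asb6 rose by 5.86 (adjusted p = 0.0434) and Asb8 fell by 5.94 (adjusted p = 0.000302), where the log2 ratios of the means were 4.08 and -4.02 and 1 two-cell M library of Asb8 was at 0.01 FPKM. Klhdc3 (156 FPKM), Socs1 (39.9 FPKM) and Klhdc2 (15.1 FPKM) had the highest means over the polysome libraries.

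Of 38 genes for elongation by RNA polymerase II 21 were tested, of which 2 were called higher and 0 lower in meiosis, 0 and 1 in the first mitosis and 2 and 2 in the second, with medians of 0.10, -1.15 and 0.36. The shares over all genes were again 3.36% and 2.75%, 3.24% and 2.51%, and 8.13% and 28.1%, with medians of 0.18, -0.43 and -1.17. Elof1, an elongation factor of the polymerase, had the highest mean (192 FPKM), rose by 3.14 from GV to MII (52.1 ± 17.9 to 441 ± 61.0 FPKM, adjusted p = 4.41e-08) and fell by 1.02 in the first mitosis (adjusted p = 0.0372). Supt4a (21.5 FPKM) and Nelfe (11.1 FPKM) followed it in level. In the second mitosis Paf1, of the PAF complex, rose by 4.46 (adjusted p = 0.045), and Tcea3, of the TFIIS family, fell by 4.20 (adjusted p = 0.00291), with 2 of 3 two-cell M libraries at 0.01 FPKM and a log2 ratio of the means of -2.89.

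Outside polysomes the lists were counted in the same way, where 13.5% of all genes were called higher and 3.14% lower in meiosis, 1.05% and 9.36% in the first mitosis and 8.17% and 28.0% in the second, with medians of 0.44, -0.87 and -1.14. Of the cullin-RING list 2 were higher and 1 lower in meiosis, 0 and 2 in the first mitosis and 3 and 4 in the second, with medians of 0.13, -0.69 and -0.77, the last of opposite sign to that in polysomes. Of the receptors 1 and 1, 0 and 1, and 2 and 5 were called, with medians of 1.16, -1.05 and 0.16. Of the elongation genes 2 and 0, 0 and 4, and 1 and 1 were called, with medians of 0.43, -1.17 and 0.19.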

How the data were processed

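Polysome and non-polysome RNA of mouse oocytes and embryos was sequenced by the authors from SMART-seq v4 libraries. The submitters' processing notes name Trim Galore 0.4.1, STAR 2.5.3a, Partek and GRCm38. Values deposited by the authors are FPKM for 23125 genes, with RefSeq genes named as the reference in the study's methods, although the table also lists Ensembl gene names. A further 2 of the 38 samples, both zygote replicate A, have no column and were not analysed here. The smallest value is 0.01 FPKM. With that amount taken off, between 28.5% and 45.5% of low values per library came within 0.03 reads of a whole number in 7034 genes with 1 transcript, so reads were not recovered and depth is unknown.

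The 7967 genes whose geometric mean reached 0.1 FPKM were fitted with limma 3.58.1 in R 4.3.3 on log2 FPKM with nothing added, as 12 group means with a trended prior, without a block. P-values were adjusted by Benjamini-Hochberg over all genes tested, and a call needed an adjusted p below 0.05 and a log2 change beyond 1. The script was tested on simulated data. Members and lists were chosen with earlier results of these data known. Named genes were the members, the 3 genes most like each, and from each list the 3 highest in polysomes and the largest called rise and fall in each M-phase comparison. Alternatives were another offset, filter, normalization, set of samples, replicate block, sample weights, and each library left out. Sequences come from GENCODE M21 and RefSeq promoter windows.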

Additional observations from a re-analysis of the deposited data

Results flagged for a closer look

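Several M-phase changes differed between transitions. In non-polysome RNA the change in meiosis minus that in the first mitosis was 3.88 for Elobl (adjusted p = 4.79e-07) and 4.03 for Eloc (adjusted p = 4.22e-05) by limma, against a median of 1.60 over all genes. Meiosis minus the second mitosis was -3.84 for Elob (adjusted p = 0.00359) and 3.03 for Elobl (adjusted p = 7.74e-06), against a median of 2.00. The first minus the second mitosis was -2.75 for Elob (adjusted p = 0.0358) and -5.06 for Eloc (adjusted p = 9.66e-07), against a median of 0.16. The Elob call between the mitoses was lost without any of 7 of the 12 libraries (adjusted p = 0.0505 to 0.128) and with quantile normalization, where it was -0.73 (adjusted p = 0.657), no filter (adjusted p = 0.0563), only the groups compared (adjusted p = 0.129), sample weights (adjusted p = 0.248) or the pseudogenes added (adjusted p = 0.171).

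In polysomes the libraries of the M-phase and interphase groups moved in opposite directions without overlap in further cases, and these differences between changes were not tested. Of all genes tested, 47.5%, 56.5% and 43.4% did not overlap between M-phase and interphase in the oocyte, zygote and two-cell embryo. Elob was lower in MII than GV and higher in two-cell M than two-cell, a difference of -7.94 between the changes. The GV polysome libraries behind this value spread from 7.23 to 48.3 FPKM. Every MII library of Eloc lay above every GV library and every zygote M library below every zygote library, a difference of 2.42 between changes, although the MII change itself, 0.56, was not called (interval -0.38 to 1.49, adjusted p = 0.587), and the zygote change differed from the two-cell change by -4.31.

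Elobl lay below its non-polysome level in MII and zygote polysomes and above it in zygote M and two-cell polysomes, which was also not tested. The median gene differed between fractions with the same signs, by -0.04 in MII, -0.24 in zygotes, 0.31 in zygote M and 0.28 in two-cell embryos. The difference between fractions in MII differed from that in zygote M by -1.80 and from that in two-cell by -1.50. For zygotes the corresponding values were -1.48 and -1.18. In MII and zygote M the same-letter differences of Elobl ranged from -0.96 to -0.83 and from 0.88 to 0.98.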

How the results depend on the processing

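Of 72 tests of members 31 were called, of which 19 were called in every setting in which the gene was tested and without any 1 library, and none of the 31 changed direction. The other 12 are named with the tests above, and 12 tests that were not called were called in some setting. Eloa was left out where the minimum was 1 FPKM, which left 3 polysome calls, against 5. With 1 FPKM added the calls between fractions were 4, against 2, and those of the interaction of fraction and M-phase 1, against 0. Leaving out 1 library gave 15 to 18 non-polysome calls, 4 to 5 polysome calls, 2 to 2 between fractions, 0 to 0 and 5 to 6 in the interactions.

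No label says what the replicate letters share, and not every pair of same-letter libraries had correlated residuals above 0.1, so the letters were not taken as pairs. Residuals of same-letter libraries had a mean correlation of 0.0756 between fractions of a stage (6 of 18 above 0.1). It was 0.0176 between non-polysome stages and 0.0205 between polysome stages. Of 18 polysome libraries 12 correlated best with their own letter. By the study's methods each gradient gave both pools, and a legend of the study gives the letters as replicates. Same-letter fractions thus probably share a gradient, a pairing that the main fit did not use. With the letter as a replicate block there were 4 polysome calls, 16 non-polysome calls, 2 between fractions, 0 and 6 interactions, and 3 calls of Eloa were lost, two-cell M against two-cell in polysomes (adjusted p = 0.0521) and, outside polysomes, GV against zygote (adjusted p = 0.0608) and MII against zygote M (adjusted p = 0.0546). With the gradient as a replicate block the counts were 5, 18, 2, 0 and 6.

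Directions that turned belong to 14 tests that were not called, nearly all of Eloa. With 0.1 FPKM added zygote M against zygote in polysomes was 0.15 for Eloa, and with 1 FPKM added 0.071, and its first minus second mitosis was 0.056. With quantile normalization Eloa was 1.08 and 1.77 for zygote M against zygote in polysomes and outside, 0.43 for two-cell M against two-cell outside, -0.18 and -0.071 between fractions in MII and zygote M, -0.69 for the fraction interaction of the first mitosis and 1.35 for the first minus second mitosis. Elob was 0.44 for zygote M against zygote outside polysomes and Eloc 0.57 for the fraction interaction of the second mitosis. With sample weights Eloa was 0.048 for two-cell M against two-cell outside polysomes. Without 1 library Eloa ranged from -1.88 to 0.12 and -1.21 to 0.95 for the first transitions in polysomes, -0.83 to 0.25 for the last outside, -1.83 to 0.16, -0.65 to 0.70 and -0.22 to 1.12 between fractions in GV, MII and zygote, -0.049 to 1.94 for the meiotic fraction interaction and -1.19 to 0.40 for meiosis minus the first mitosis, and Eloc from -0.36 to 0.23 for the fraction interaction of the second mitosis. The cause was not tested. The median change of all genes ran from -1.17 to 3.39 over the stage comparisons and from -0.46 to 0.30 with quantile normalization. The number of genes called moved by over 1.5 times in 7 of 26 comparisons with 0.1 FPKM added, 10 with 1 FPKM, 9 with no filter, 19 at 1 FPKM, 14 with quantile normalization, 17 with only the groups compared, 21 with sample weights and 13 without 1 library.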
